A study of Homo sapiens with 6 samples.

Results

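Epithelial cells of the colon are held together by adherens junctions, built on E-cadherin, and by tight junctions, sealed by claudins. Transcription factors and splicing regulators such as GRHL2, ESRP1 and ESRP2 maintain this state, and the zinc finger repressors ZEB1 and SNAI2 act against it during epithelial-mesenchymal transition (EMT), the change of sheet-forming cells into motile ones. ZEB1 and SNAI2 bind E-box letters in promoters, among them that of CDH1, and are known as repressors of junction genes. The genes described here are CDH1, EPCAM, GRHL2, ESRP1, ESRP2, CLDN3, CLDN4, CLDN7, ZEB1 and SNAI2. They were taken as every probe set that the platform annotation assigns to exactly 1 of these symbols, which gave 13 of the 22215 probe sets on the array and covered 9 of the 10 genes. ESRP2 is left out because its probe set is annotated to more than 1 gene.

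The study used HCT116, an established human colon cancer cell line. Lentivirus (vector FUGW) had delivered a hairpin against NFX1-91, a splice form of the zinc finger protein NFX1, to one group of cells (3 arrays), and a hairpin against β-galactosidase to the control cells (3 arrays). Both groups thus carried a virus and a hairpin, and the labels do not say whether a group derived from 1 clone or whether its arrays came from separate cultures. The p-values therefore set the groups against array-to-array spread that may be technical alone.

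Signals are the deposited linear intensities with every array scaled to a mean of 500, and fold changes are differences in log2(signal + 16), NFX1-91 shRNA minus β-galactosidase shRNA. An adjusted p under 0.05 in limma, after Benjamini-Hochberg adjustment over all 22215 probe sets, is called a change. By that measure 25.7% of all probe sets differed between the groups, 12.0% higher and 13.7% lower with the NFX1-91 hairpin, so a call by itself is common in this comparison. The number of arrays limits the precision, and arrays correlated at 0.992 to 0.995 within groups and 0.983 to 0.985 between groups. Of the 3 NFX1 probe sets, 202584_at averaged 134 ± 8.39 in NFX1-91 shRNA arrays and 148 ± 10.7 in control arrays (SD, n = 3 each; log2 fold change -0.13, limma adjusted p = 0.3997). The second, 202585_s_at, averaged 76.3 ± 6.15 with the NFX1-91 hairpin and 80.7 ± 10.1 in control arrays (log2 fold change -0.06, limma adjusted p = 0.775). The third, 210268_at, was dim and averaged 7.42 ± 2.48 with the NFX1-91 hairpin and 19.6 ± 4.17 in control arrays (log2 fold change -0.60, limma adjusted p = 0.0137). Its fold change was -1.32 with an offset of 1 and -0.23 with an offset of 64, so its size rests on the offset. Which NFX1 forms each probe set detects was not tested.

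Epithelial keratins were bright in both groups. KRT18 averaged 10739 ± 54.8 with the NFX1-91 hairpin and 7403 ± 488 in control arrays, and KRT8 averaged 7065 ± 121 with the NFX1-91 hairpin and 5556 ± 172 in control arrays (SD, n = 3 each). Markers of differentiated colon cells were low, and 4 of the 12 colon epithelial markers (VIL1, CDH17, GPA33 and LGALS4) had mean signals below 16. Of markers of other cell types, the summed signal of 10 fibroblast markers ran from 333 to 398 with the NFX1-91 hairpin and from 305 to 394 in control arrays. COL1A1 made up much of these sums. By its brightest probe set it averaged 193 ± 18.7 with the NFX1-91 hairpin and 189 ± 18.6 in control arrays (SD, n = 3 each). The log2 fold change of that probe set was 0.03 (limma adjusted p = 0.884), and 1 of the 3 other COL1A1 probe sets was called higher. For 6 blood cell markers the sums ran from 144 to 175 with the NFX1-91 hairpin and from 129 to 160 in control arrays, and for 5 endothelial markers from 94.5 to 120.4 with the NFX1-91 hairpin and from 94.6 to 120.0 in control arrays. HBB (log2 fold change 0.45, limma adjusted p = 0.0328) and KDR (-0.54, limma adjusted p = 0.0349) were the only members of these 3 lists past the threshold when each gene was read by its brightest probe set.

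With the NFX1-91 hairpin, the claudin CLDN7, the transcription factor GRHL2 and the splicing regulator ESRP1 fell to between 0.444 and 0.527 of their control signal. E-cadherin (CDH1) fell to 0.698 by its bright probe set and EPCAM, a surface glycoprotein of epithelial cells, to 0.901. The repressor ZEB1 rose by all 3 of its probe sets, to between 1.65 and 2.18 times control. SNAI2 fell, from a low signal. CLDN3 and CLDN4 did not pass the threshold. In RNA from a bulk culture, fewer cells with a transcript and less of it per cell cannot be told apart. In all, 9 of the 13 probe sets changed, beside 25.7% of all probe sets, with 3 higher (all ZEB1, beside 12.0%) and 6 lower (beside 13.7%), and the arrays of the groups did not overlap for 11 of the 13, against 39.0% of all probe sets. These shares overstate the contrast, as calls were more common among brighter probe sets. With dim probe sets left out, 2843 of 13329 were higher and 3234 lower, beside 3 higher and 5 lower of 11 here. By the brightest probe set per gene, 32.5% of 11963 genes changed, beside 1 higher and 6 lower of the 9 genes. The genes were also chosen with earlier results of these data known. The median log2 fold change was -0.15 over the 13 probe sets and 0.0099 over all probe sets.

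**Figure D1:**
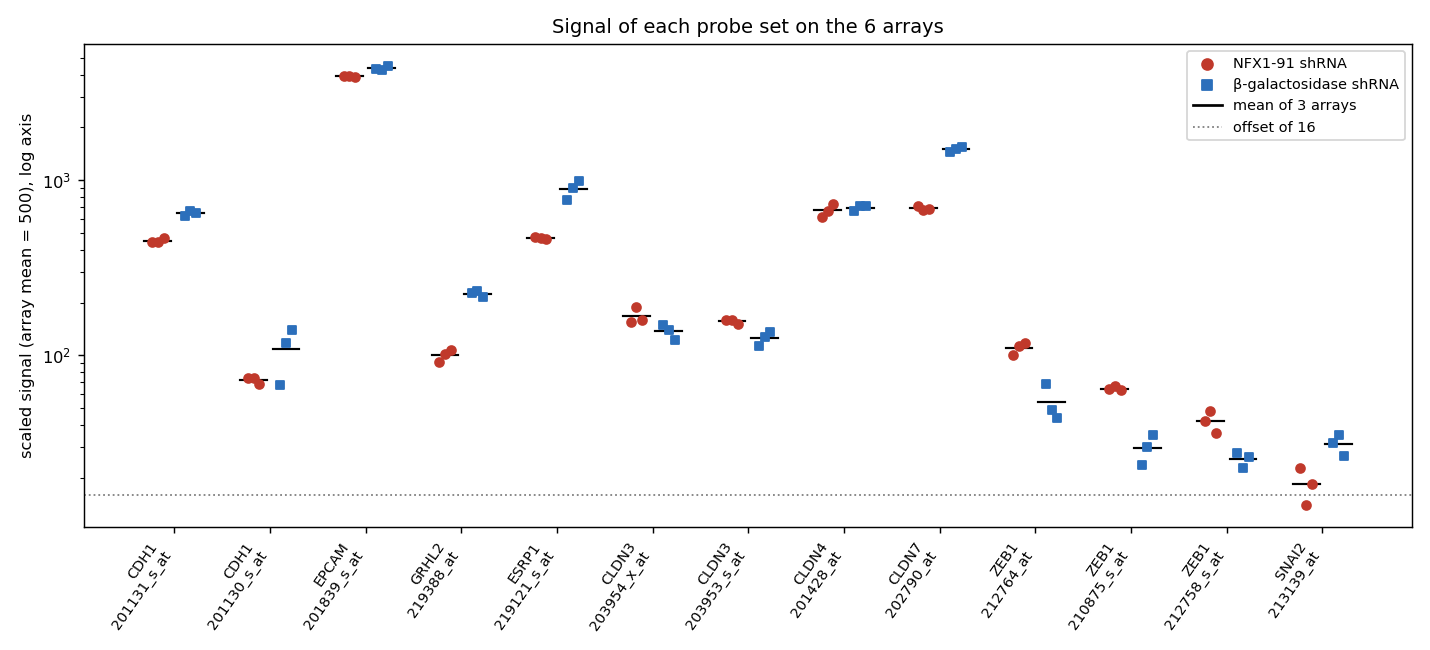
Scaled signal (log axis, array mean 500) of the 13 probe sets on each array, with 3 NFX1-91 shRNA arrays (red circles) left of 3 β-galactosidase shRNA arrays (blue squares), and the mean of each group as a bar. The groups overlap for CLDN4 and for the dimmer CDH1 probe set, and stand apart for the other 11.

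Of the 3 claudin genes, CLDN7 passed the threshold. Claudins are membrane proteins with 4 passes through the membrane that set the permeability of the tight junction, and CLDN7 also lies along the lateral membrane. CLDN7 (202790_at) had signals of 712, 675 and 681 in NFX1-91 shRNA arrays, against 1449, 1514 and 1555 in control arrays. Every NFX1-91 shRNA array lay below every control array. The log2 fold change was -1.11 (SE 0.049, 95% interval -1.22 to -0.998, limma adjusted p = 3.18e-06), a 2.18-fold fall.

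CLDN4 (201428_at) had signals of 618, 663 and 733 with the NFX1-91 hairpin, against 663, 714 and 716 in control arrays. The groups overlapped, with a log2 fold change of -0.06 (95% interval -0.22 to 0.10, limma adjusted p = 0.640). That interval leaves room for a small difference in either direction and none as large as that of CLDN7.

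CLDN3 was read by 2 probe sets of moderate signal. The brighter over all arrays, 203954_x_at, had 155, 188 and 160 with the NFX1-91 hairpin, against 149, 140 and 122 in control arrays, and 203953_s_at had 159, 159 and 152 with the NFX1-91 hairpin, against 113, 126 and 136 in control arrays. On both probe sets every NFX1-91 shRNA array lay above every control array, by a narrow gap. Neither passed the threshold, with log2 fold changes of 0.26 (SE 0.110, limma adjusted p = 0.122) and 0.29 (SE 0.097, limma adjusted p = 0.0568). The 203953_s_at value did pass in 5 of 14 alternative settings, quantile normalization among them (0.35, limma adjusted p = 0.0208), and the 203954_x_at value in 0 of 15.

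The difference between claudins was tested directly from the per-array log2 difference of 2 probe sets, with an exact two-sided permutation test whose smallest possible p with 3 against 3 arrays is 0.1. Altogether 10 such differences were tested, and a planned ESRP1 to ESRP2 comparison was not run. CLDN7 moved lower than CLDN4 by 1.05 on the log2 scale and lower than CLDN3 by 1.37, and in both cases the arrays of the groups did not overlap (exact p = 0.1, adjusted p = 0.167 over the 10). The change of CLDN4 minus that of CLDN3 was -0.32, with groups that overlapped (exact permutation p = 0.2, adjusted p = 0.286). Both comparisons with CLDN3 used 203954_x_at, a kind of probe set that related transcripts can share. A p of 0.1 is the limit of this permutation test, so it could not bring any of these differences under 0.05.

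The promoters of the 3 claudin genes are shown because ZEB1 and SNAI2, the repressors measured here, bind E-boxes. Whether either acts on these genes in these cells was not tested. Each window runs from 250 bases before to 50 after an annotated start, from RefSeq on GRCh38.p14, 5′ to 3′ on the gene's strand. Of the 10 genes, 4 (CLDN3, CLDN4, CLDN7 and ZEB1) had windows in that table. Capitals mark CAGGTG and CACCTG, which are the same motif read on the 2 strands, and the matches printed do not overlap each other. Other E-box forms, such as the CAGCTG in the CLDN4 window, were neither marked nor counted.
CLDN7, downstream start, minus strand, chr17:7262429-7262728: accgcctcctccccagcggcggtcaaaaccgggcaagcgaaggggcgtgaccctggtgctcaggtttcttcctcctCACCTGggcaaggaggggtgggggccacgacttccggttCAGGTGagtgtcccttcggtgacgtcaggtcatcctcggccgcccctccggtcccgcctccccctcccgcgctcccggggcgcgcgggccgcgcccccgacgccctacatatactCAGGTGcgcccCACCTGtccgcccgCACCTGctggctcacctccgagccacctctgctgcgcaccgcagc
CLDN3, minus strand, chr7:73770221-73770520: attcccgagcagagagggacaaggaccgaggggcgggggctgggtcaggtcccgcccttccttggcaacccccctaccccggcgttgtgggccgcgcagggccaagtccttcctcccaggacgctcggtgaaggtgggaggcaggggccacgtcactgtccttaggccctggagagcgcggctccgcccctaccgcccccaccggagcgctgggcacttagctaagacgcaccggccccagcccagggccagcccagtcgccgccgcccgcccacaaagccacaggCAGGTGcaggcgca
CLDN4, plus strand, chr7:73830746-73831045: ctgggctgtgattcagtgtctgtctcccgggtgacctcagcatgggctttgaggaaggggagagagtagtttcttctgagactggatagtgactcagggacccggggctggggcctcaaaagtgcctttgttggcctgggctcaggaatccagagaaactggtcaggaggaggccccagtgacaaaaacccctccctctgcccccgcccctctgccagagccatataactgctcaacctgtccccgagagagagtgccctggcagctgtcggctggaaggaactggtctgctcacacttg

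The CLDN7 window holds 5 matches, beginning 174, 135, 20 and 9 bases before the start and 5 after it. The CLDN3 window holds 1, beginning 36 bases after the start, and the CLDN4 window 0. A second annotated CLDN7 start, upstream of the printed one at chr17:7263164-7263463, holds 0 matches in its window. Of all 35116 promoter windows given there, 20.6% hold at least 1 match, and 33, or 0.0940%, hold 5 or more, a number chosen after the CLDN7 count was seen. For ZEB1 itself, which rose, 2 of 7 annotated windows held a match, 1 of them with 1 match and the other with 3. The matches are a description of letters, and neither binding nor start site use was measured. Whether the matches bear on the changes in signal was not tested.

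**Figure D2:**
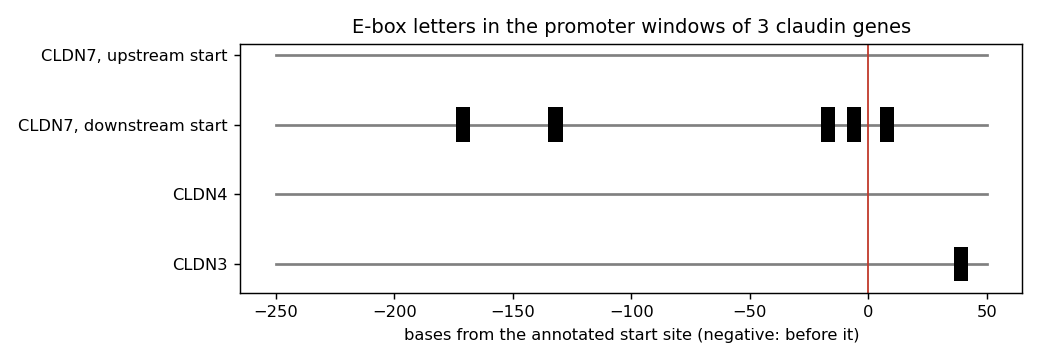
Position of CAGGTG or CACCTG letters (black blocks) along the promoter windows of CLDN7 (2 annotated starts), CLDN4 and CLDN3, in bases from the start site (red line). The downstream CLDN7 window holds 5 matches, the CLDN3 window 1, and the other windows 0.

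Among the regulators that maintain the epithelial state, GRHL2 and ESRP1 fell. GRHL2, a grainyhead transcription factor known to activate CDH1 and claudin genes, had signals of 91.5, 101.1 and 107.1 (219388_at) with the NFX1-91 hairpin, against 228, 233 and 214 in control arrays. The highest NFX1-91 shRNA array lay far below the lowest control array. The log2 fold change was -1.06 (SE 0.092, limma adjusted p = 7.65e-05), a 2.25-fold fall of the mean signal.

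ESRP1, which sets epithelial splice choices in transcripts such as FGFR2, CD44 and CTNND1, had signals of 477, 467 and 461 (219121_s_at) with the NFX1-91 hairpin, against 774, 906 and 984 in control arrays. The NFX1-91 shRNA arrays were tightly grouped (SD 7.98) and the control arrays more widely (SD 106), with no overlap. The log2 fold change was -0.89 (SE 0.084, limma adjusted p = 0.000108). Splice forms were not read by these probe sets.

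GRHL2, ESRP1 and SNAI2 are annotated to chromosome 8, and all 3 fell. Of the 434 genes of chromosome 8 read by their brightest probe set, 16.6% were lower and 18.4% higher, beside 17.8% lower and 14.7% higher of all 11963 genes. The share of lower calls on that chromosome was near the background. It is a share over the whole chromosome and cannot speak for a part of it, and a change in copy number was not tested.

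E-cadherin and EPCAM carry adhesion between epithelial cells. CDH1, the core of the adherens junction, was read by a bright and a dim probe set. The bright one (201131_s_at) had signals of 443, 444 and 468 with the NFX1-91 hairpin, against 620, 670 and 651 in control arrays, with no overlap and a log2 fold change of -0.50 (SE 0.058, limma adjusted p = 0.000314).

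The dim CDH1 probe set (201130_s_at) had signals of 74.2, 73.9 and 68.5 with the NFX1-91 hairpin, against 68.0, 117 and 139 in control arrays. One control array, replicate 1, lay below all NFX1-91 shRNA arrays and the other two above them. The log2 fold change was -0.45 (SE 0.207, limma adjusted p = 0.161), and it was -0.71 without control replicate 1 (limma adjusted p = 0.00343). The change of the bright minus that of the dim CDH1 probe set was -0.05 (exact permutation p = 0.8). The per-array difference of the 2 had an SD of 0.096 with the NFX1-91 hairpin and 0.42 in control arrays, so that value does not show that they changed alike.

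EPCAM was the brightest of the 13, with signals of 3910, 3952 and 3891 (201839_s_at) with the NFX1-91 hairpin, against 4299, 4263 and 4488 in control arrays. The groups did not overlap, and the fall was small, a log2 fold change of -0.15 (SE 0.033, limma adjusted p = 0.00967). Without a variance trend in limma it did not pass (adjusted p = 0.137). With median centring the EPCAM fold change was -0.12, close to the threshold (limma adjusted p = 0.0473). CDH1 moved lower than EPCAM by 0.35 on the log2 scale, with groups that did not overlap (exact permutation p = 0.1, adjusted p = 0.167).

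**Figure D3:**
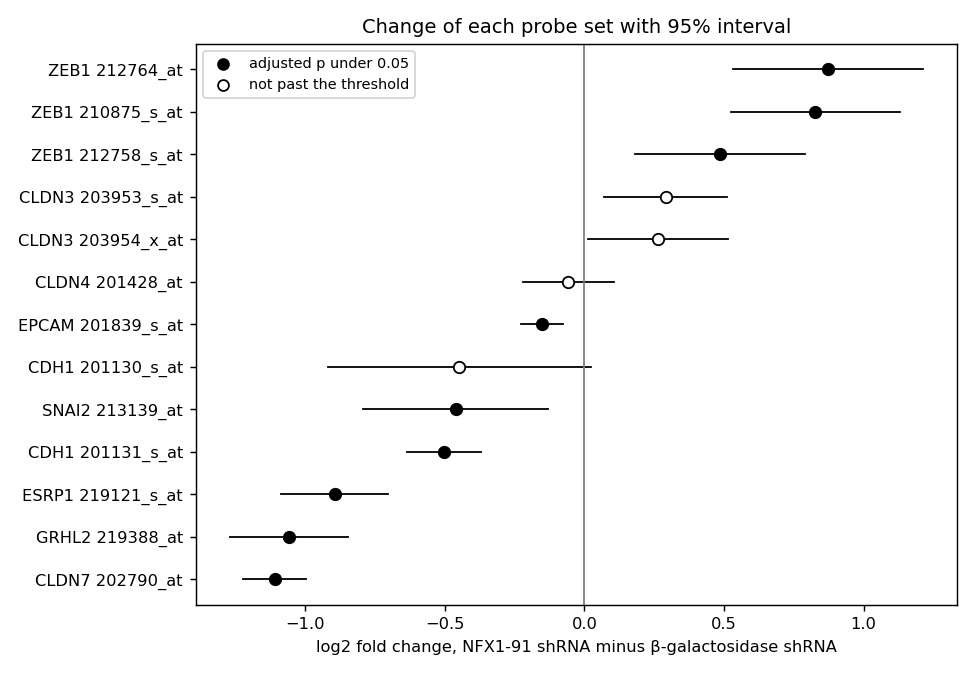
Log2 fold change (NFX1-91 shRNA minus β-galactosidase shRNA) of each of the 13 probe sets with its 95% interval from limma. Filled points passed an adjusted p of 0.05. The 3 ZEB1 probe sets lie highest, at 0.48 to 0.87, and CLDN7, GRHL2 and ESRP1 lowest, at -1.11 to -0.89.

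ZEB1, the repressor, was the gene of the set that rose. Its brightest probe set (212764_at) had signals of 100, 113 and 118 with the NFX1-91 hairpin, against 68.8, 48.5 and 44.1 in control arrays. The next (210875_s_at) had 64.1, 66.4 and 63.3 with the NFX1-91 hairpin, against 23.8, 30.1 and 35.1 in control arrays. The dimmest (212758_s_at) had 42.4, 48.2 and 36.1 with the NFX1-91 hairpin, against 27.6, 22.6 and 26.4 in control arrays.

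On all 3 ZEB1 probe sets the lowest NFX1-91 shRNA array lay above the highest control array. The log2 fold changes were 0.87 (SE 0.149, limma adjusted p = 0.00272), 0.83 (SE 0.132, adjusted p = 0.00191) and 0.48 (SE 0.134, adjusted p = 0.0275) from the brightest to the dimmest. All lay below the median brightness of the array, at percentiles 49.4, 41.9 and 37.3, where the offset of 16 shrinks a fold change. With an offset of 1 they were 1.05, 1.11 and 0.70, and with an offset of 64 they were 0.57, 0.46 and 0.25, past the threshold in each case. The fold change of the dimmest was smaller than those of the others, by 0.39 and 0.34 with groups that did not overlap (exact permutation p = 0.1 each, adjusted p = 0.167), and its call was lost when any of 4 arrays was left out (NFX1-91 shRNA replicate 1 or 2, control replicate 2 or 3; limma adjusted p from 0.0644 to 0.107).

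SNAI2, known as Slug, a repressor of CDH1, was lower where ZEB1 was higher. Its signals (213139_at) were 22.8, 13.98 and 18.4 with the NFX1-91 hairpin, against 31.6, 35.2 and 26.7 in control arrays. The groups did not overlap, but they lay close to the offset, at percentile 32.6 of brightness. The log2 fold change was -0.46 (SE 0.145, limma adjusted p = 0.0479). This call sat at the threshold and was lost in 8 of 14 alternative settings, 5 of them with 1 array left out (any array other than NFX1-91 shRNA replicate 1). Without NFX1-91 shRNA replicate 2, the fold change was -0.37 (limma adjusted p = 0.163). With all 6 arrays and an offset of 1 it was -0.75 (limma adjusted p = 0.0658) and with an offset of 64 it was -0.21 (limma adjusted p = 0.0382). ZEB1 moved higher than SNAI2 by 1.33 on the log2 scale, with groups that did not overlap (exact permutation p = 0.1, adjusted p = 0.167).

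Genes with the most similar profile over the 6 arrays were found by the root mean square distance of centred log2 signal between brightest probe sets, given as a description. JUND (0.046) and MORF4L1 (0.054) lay nearest to CLDN7, MELK (0.035) and CHERP (0.038) to GRHL2, and RNF170 (0.037) and ZDHHC24 (0.053) to ESRP1. SAMD4A (0.061) and ZFTA (0.062) lay nearest to ZEB1, and UGDH (0.015) and SPTLC1 (0.018) to CDH1. For EPCAM the nearest were NCBP2 (0.015) and AMZ2 (0.019), and for SNAI2 they were CLBA1 (0.039) and CYP27B1 (0.057). No pair of the 9 measured genes was among these nearest neighbours.

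Related genes were read from fixed lists, 1 brightest probe set per gene, with limma adjustment over 11963 genes, of which 14.7% were higher, 17.8% lower and the median log2 fold change was 0.0036. Among 16 measured epithelial regulators and surface proteins 8 were lower, 1 was higher and 7 did not pass, with a median of -0.17. Every gene of this list had a mean signal of at least 86.7, and calls were more common among brighter probe sets. The shares over all genes thus overstate the contrast with this list. AP1M2, the epithelial subunit of a clathrin adaptor that sorts proteins to the basolateral membrane, averaged 274 ± 21.8 with the NFX1-91 hairpin and 485 ± 29.0 in control arrays (log2 fold change -0.79). The small GTPase RAB25 fell by 0.50, the RNA-binding protein RBM47 by 0.61 and the transcription factor KLF5 by 0.34 on the log2 scale. LLGL2, a polarity protein of the basolateral membrane that was named after its value was seen, rose by 0.31.

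Of 15 measured adherens junction and desmosome genes 7 were higher, 2 were lower and 6 did not pass, with a median log2 fold change of 0.17. NECTIN3, an immunoglobulin-like adhesion protein, averaged 1021 ± 54.1 with the NFX1-91 hairpin and 570 ± 51.3 in control arrays (log2 fold change 0.83, limma adjusted p = 2.30e-05). Its relative NECTIN2 rose by 0.48, and the desmosomal linkers DSP and EVPL rose by 0.32 and 0.50. The 2 that fell, named after their values were seen, were the catenins CTNNB1 (-0.13) and JUP (-0.31), which bind the tail of E-cadherin. Another catenin of the list, CTNNA1, also named after its value was seen, rose (log2 fold change 0.17, limma adjusted p = 0.0294). Called members thus lay in both directions.

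Of 9 measured tight junction partners 2 were higher, 1 lower and 6 not past the threshold. The polarity proteins PARD3 (log2 fold change 0.52) and PALS1 (0.42) rose, and the scaffold TJP1 (-0.20) fell. Of 12 other claudins 1 was lower and 11 did not pass, and 5 of the 12 had mean signals below 16. The 1 that passed, CLDN18, averaged 10.4 ± 6.76 with the NFX1-91 hairpin and 23.5 ± 6.65 in control arrays, with overlapping groups (log2 fold change -0.59, limma adjusted p = 0.0471), and its other 2 probe sets did not pass.

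Of 8 other measured EMT transcription factors 1 was higher, 2 lower and 5 not past the threshold. SNAI1, known as Snail and a relative of SNAI2, averaged 114 ± 17.9 with the NFX1-91 hairpin and 70.6 ± 14.8 in control arrays (log2 fold change 0.59, limma adjusted p = 0.0134). TWIST1 fell by 0.58 from a low signal, and TCF3, which encodes E-box-binding proteins, fell by 0.18. ZEB2, the paralogue of ZEB1, averaged 5.50 ± 2.21 with the NFX1-91 hairpin and 7.63 ± 2.02 in control arrays, below the offset, and did not pass (limma adjusted p = 0.518). Such a signal does not show whether ZEB2 changed.

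Of 14 measured mesenchymal genes 4 were higher, 1 was lower and 9 did not pass, with a median log2 fold change of 0.22. CCN2 rose by 1.24, the matrix protein SPARC by 0.80 and fibronectin FN1 by 0.51, while the actin-binding TAGLN fell by 1.94. SPARC averaged 27.1 ± 5.09 with the NFX1-91 hairpin and 8.90 ± 4.63 in control arrays, close to the offset. Vimentin (VIM), a usual mesenchymal marker, averaged 256 ± 33.5 with the NFX1-91 hairpin and 211 ± 6.78 in control arrays and did not pass (log2 fold change 0.25, limma adjusted p = 0.0742). N-cadherin (CDH2) averaged 6.35 ± 5.12 with the NFX1-91 hairpin and 2.08 ± 0.949 in control arrays, far below the offset, and did not pass (limma adjusted p = 0.273). Among 12 colon epithelial markers 2 were higher, 1 was lower and 9 did not pass: the keratins KRT18 and KRT8 rose by 0.54 and 0.35, and KRT20 fell by 0.60. KRT18 and KRT8 were read by probe sets of the _x_at kind, which related transcripts can share. Of the 24 listed genes that the naming rule gave, 9 had other probe sets, of which at least 1 was called the same way for 4 genes (PARD3, AP1M2, TCF3 and FN1) and the opposite way for 0.

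**Figure D4:**
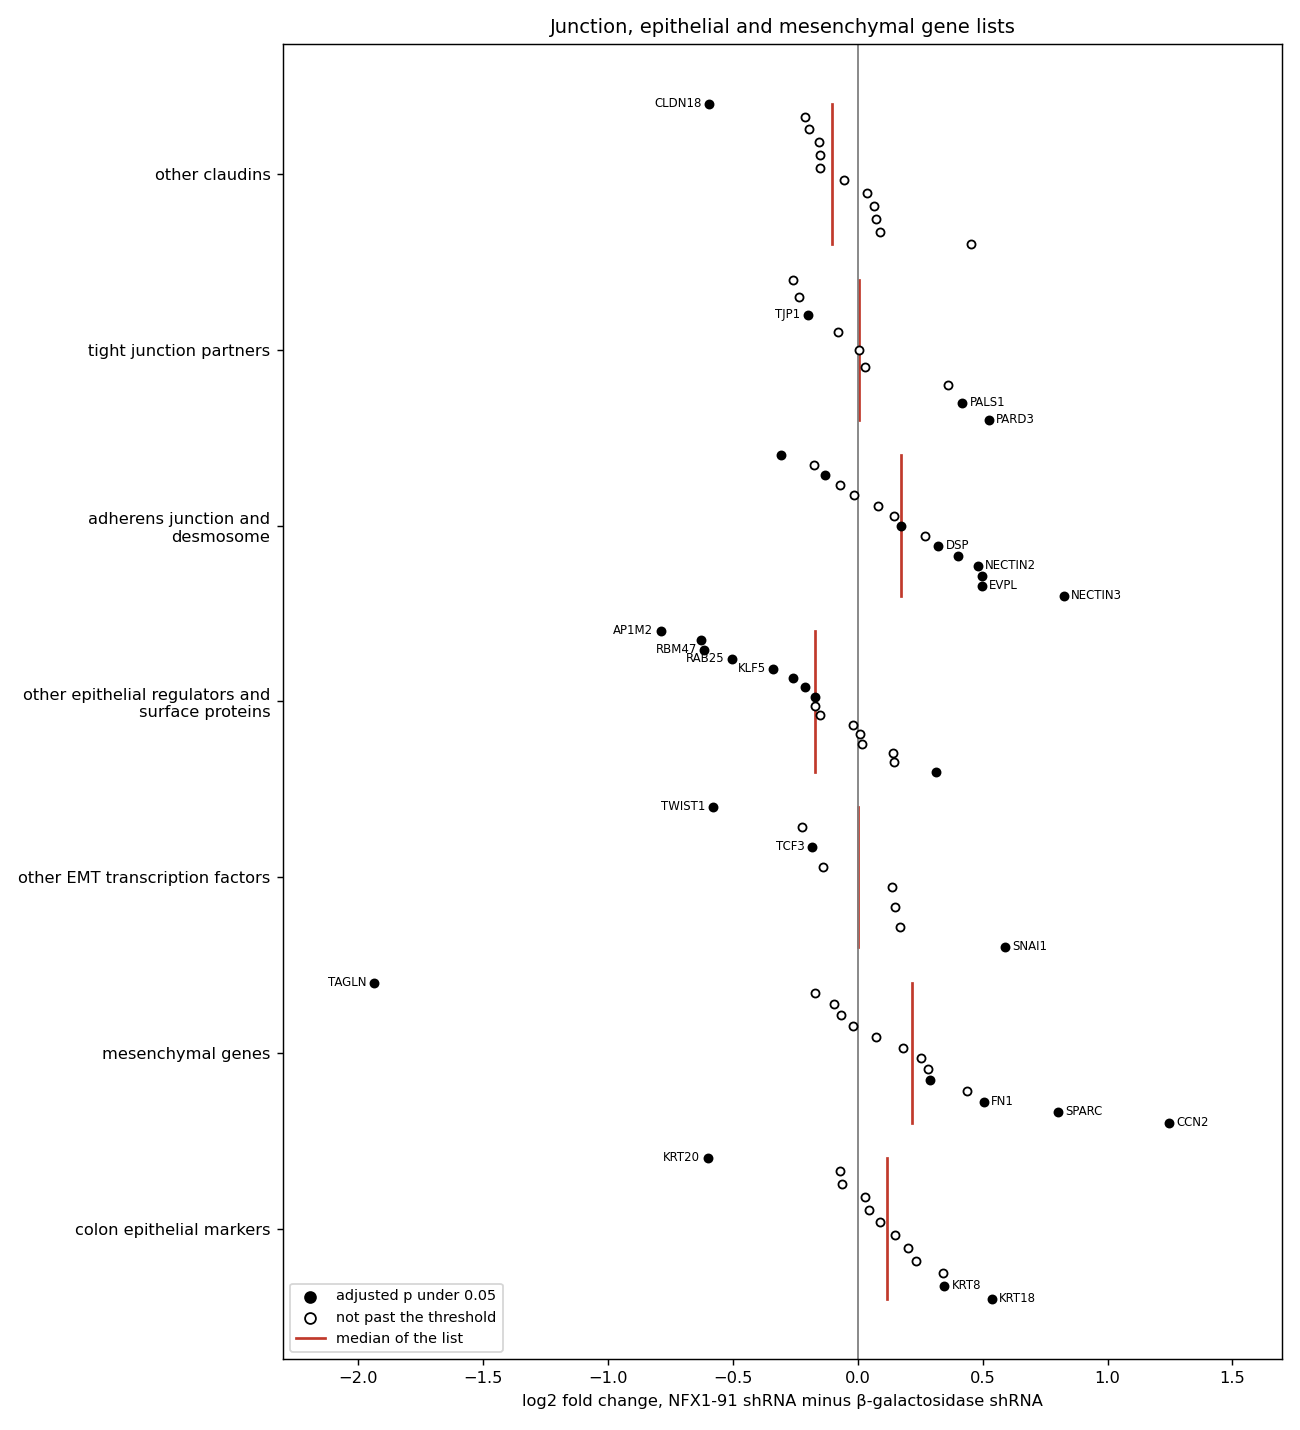
Log2 fold change (NFX1-91 shRNA minus β-galactosidase shRNA) of each measured gene of 7 fixed lists, by its brightest probe set. Filled points passed an adjusted p of 0.05 over all genes, names mark the genes of the naming rule, and red lines are list medians, from -0.17 for other epithelial regulators to 0.22 for mesenchymal genes.

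The calls of the 13 probe sets differed in how far they held when the processing was varied. The bright CDH1 probe set, CLDN7, GRHL2 and ESRP1 were called in 15 of 15 alternative settings, EPCAM in 14 of 15, and ZEB1 in 15 of 15, 14 of 14 and 8 of 13 from its brightest to its dimmest probe set. SNAI2 was called in 6 of 14, and CLDN4 in 0 of 15.

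**Figure D5:**
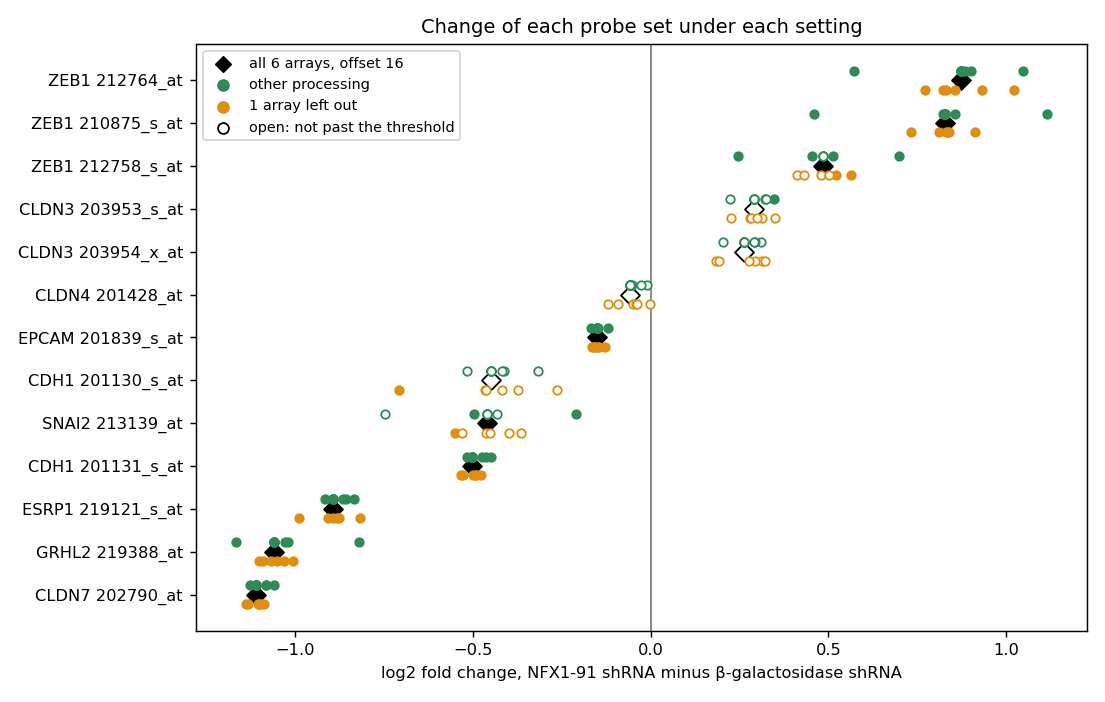
Log2 fold change of each of the 13 probe sets under the main setting (black diamonds), under other processing (green, above) and with 1 array left out (orange, below). Open symbols did not pass an adjusted p of 0.05. CLDN7, GRHL2, ESRP1, the bright CDH1 probe set and 2 ZEB1 probe sets are filled throughout, and SNAI2 and the dimmest ZEB1 probe set are open in part.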

How the data were processed

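Biotin-labelled cRNA made from total RNA of HCT116 cells was put on Affymetrix arrays, per the labels' protocols. The authors deposited linear intensity values for 22215 probe sets, each array summing to 1, with their summarisation and scaling not given in the sources used here. Between 397 and 451 values per array repeat 1 low value. Arrays were scaled to a mean of 500 and log2(signal + 16) was taken. Between 24.1% and 25.9% of values lay below 16.

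The platform annotation named the probe sets (19064 with 1 gene, 1043 with several, 2108 with none listed), checked by gene identifier against RefSeq (19052 matched, 0 symbols changed). The comparison used limma 3.58.1 (R 4.3.3; trended eBayes, unpaired, two-sided). Exact permutation tests used SciPy 1.17.1, and figures matplotlib 3.10.9 in Python 3.11.15. The limma step was tested on simulated data. The genes and lists were chosen with earlier results of these data known. Genes named from a list were up to 4 called members with the smallest p, and profile neighbours the 2 nearest genes of each called gene. Alternatives were quantile normalization, median centring, offsets of 1 and 64, leaving out probe sets under the 40th percentile, no variance trend, a robust prior, 1 probe set per gene, a replicate block and leaving out each array.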

Additional observations from a re-analysis of the deposited data

How the results depend on the processing

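CLDN7, GRHL2, ESRP1, the bright CDH1 probe set and 2 ZEB1 probe sets (212764_at and 210875_s_at) kept direction and call in every alternative run. Their highest adjusted p by limma were 0.000467 for CLDN7, 0.00135 for GRHL2, 0.00197 for ESRP1, 0.00441 for CDH1, and 0.0201 and 0.0140 for the ZEB1 probe sets. With 1 probe set per gene, 1762 were higher and 1 of those was a member, as that setting has fewer features. Leaving out 1 array gave 1669 to 2761 higher probe sets over the whole array, against 2656 with all 6 arrays. The lowest count was without NFX1-91 shRNA replicate 2 and the highest without control replicate 1. Without that control array 3201 were lower, against 3047 with all 6 arrays. Same-numbered arrays of the 2 groups did not deviate together from their group means (correlations -0.058, 0.087 and -0.088 for replicates 1 to 3), and arrays did not all correlate best with their own number. With the replicate block 2265 probe sets were higher and 2649 lower, 2 and 5 of them members, and the calls of SNAI2 (limma adjusted p = 0.0854) and ZEB1 212758_s_at (0.0618) were lost. The SNAI2 call was also lost with median centring (0.0644) and an offset of 1 (0.0658). NFX1 202585_s_at, not called in any setting, ran from -0.14 to 0.0069 with 1 array left out, the last without control replicate 2. Members near or below a signal of 30 are limited by the offset, and no detection calls were used here.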
